A study of Mus musculus with 12 samples.

Results

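The polymerase I inhibitor CX-5461 and the mTOR inhibitor rapamycin were compared directly by their gene levels in mouse ES cells. The members were the genes with at least 1 TPM (a gene's transcripts as a share of the library, corrected for length) in at least 2 of the 4 libraries of these treatments, 16956 of the 53715 genes in the ES cell table. The groups were ES cells treated with CX-5461 (2 libraries), ES cells treated with rapamycin (2 libraries) and, as background, untreated ES cells (2 libraries), all labelled as derived from the inner cell mass. ES cells treated with rotenone (2 libraries) entered the fit only to help estimate the spread. LIF/2i medium and a layer of feeder fibroblasts were used for culture, the feeders were depleted before RNA extraction, and per the study both drugs were given at the same molar concentration for the same time. The labels name no separate cultures for the replicates of a group, while the study describes its 2 experiments per group as biologically independent. The p-values measure the spread between these libraries alone.

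Polymerase I transcribes the precursor of the large ribosomal RNAs in the nucleolus, and when it is blocked, unassembled ribosomal proteins can bind Mdm2 and thereby stabilise p53. The mTOR kinase, in complex 1, senses amino acids and growth factors and promotes translation of ribosomal protein mRNAs, ribosomal RNA synthesis and the making of lipids, nucleotides and serine, while holding autophagy and lysosome genes in check. Rapamycin binds the protein encoded by Fkbp1a and this pair inhibits complex 1. Both drugs therefore act on ribosome production, CX-5461 at the ribosomal RNA genes and rapamycin upstream of them.

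ES cell markers were abundant in all libraries. The 8 ES cell markers summed to 2990.2 and 3223 TPM with CX-5461, 4494 and 4509 TPM with rapamycin and 4032 and 4434 TPM in untreated cells, and none was at 0. Feeder fibroblast RNA was also present and differed between the groups. The 8 defining fibroblast markers (Col1a1, Col1a2, Col3a1, Thy1, Pdgfrb, Postn, Lum and Dcn) summed to 2524 and 2619 TPM with CX-5461, 1289 and 1042 TPM with rapamycin and 569.9 and 719.5 TPM in untreated cells, again with none at 0. All 43 listed fibroblast markers together gave 9663 and 10104 TPM with CX-5461, 5265 and 4752 TPM with rapamycin and 3136 and 3534 TPM in untreated cells. In such bulk RNA, fewer cells of a type and less RNA per cell cannot be told apart. The CX-5461 libraries had 16768 and 17104 genes at 1 TPM or more, the rapamycin libraries 15531 and 15107, and the untreated libraries 14521 and 15015. Replicates of a group had correlations of 0.9862 with CX-5461 and 0.9836 with rapamycin across genes on the log2 scale, and depth cannot be read from TPM values.

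CX-5461-treated cells differed from rapamycin-treated cells in much of the transcriptome. By limma on log2(TPM + 1), with Benjamini-Hochberg adjusted p under 0.05, 5492 genes (32.4% of those tested) were higher with CX-5461 and 1556 (9.18%) were lower. A log2 difference of at least 1 was reached by 2951 of the higher genes and by 304 of the lower genes. Both CX-5461 libraries lay above both rapamycin libraries for 8827 genes (52.1%) and below them for 3647 genes (21.5%). The median over all tested genes was itself 0.27 above 0, so list medians are given relative to it. The surplus of higher genes depended on the scaling, with 3903 higher and 3235 lower genes under median-ratio scaling, 3397 and 3407 under quantile scaling, and 3703 and 3893 after a trend with exon length was removed. Of the called genes, higher ones made up 77.9% as scaled here and 54.7%, 49.9% and 48.7% under those alternatives. Leaving out 1 library gave 2798 higher and 773 lower genes without CX-5461 replicate 1, 2313 and 656 without CX-5461 replicate 2, and 3861 and 872 without rapamycin replicate 2. No gene called in both fits changed its direction under any of the alternatives.

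**Figure D1:**
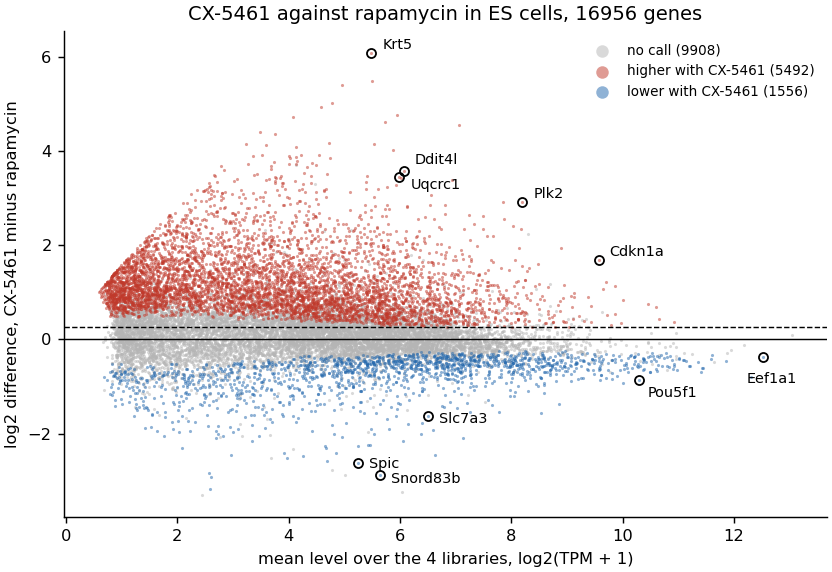
Difference between CX-5461 and rapamycin (y axis, log2 of TPM + 1, CX-5461 minus rapamycin) against the mean level over the 4 libraries (x axis, log2 scale), 1 point per tested gene. Red points are the 5492 genes called higher and blue points the 1556 called lower with CX-5461, the dashed line is the median of all genes (0.27), and circled genes are named in the text.

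For most called genes the untreated level lay on the rapamycin side. Untreated cells were nearer to rapamycin-treated than to CX-5461-treated cells, on the log2 scale, for 5388 of the 5492 genes higher with CX-5461 (98.1%) and for 1419 of the 1556 lower genes (91.2%). This is a description of where the untreated mean fell, without a test. In the other 104 higher and 137 lower genes the untreated level was nearer to CX-5461.

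The genes with the largest rises were low or nearly silent with rapamycin, which a ranking by log2 difference favours. Of those named here, Krt5, Neb and Dusp13 passed the level filter through CX-5461 alone, as did 1340 of the 16956 tested genes. The filter thus fixed the direction of their difference. Krt5, a keratin of basal epithelia (ENSMUSG00000061527.7, chr15:101707070-101712898 on GRCm38, minus strand), had 93.0 and 81.0 TPM with CX-5461, against 0.480 and 0.139 TPM with rapamycin and 0.292 and 0.313 TPM in untreated cells (log2 difference 6.08, SE 0.20, adjusted p = 3.68e-05). Them5, a mitochondrial acyl-CoA thioesterase gene, had 90.02 and 83.9 TPM with CX-5461 and 0.563 and 1.43 TPM with rapamycin, and Neb, which encodes the muscle thin filament protein nebulin, 66.6 and 52.7 TPM with CX-5461 and 0.499 and 0.354 TPM with rapamycin. The dual-specificity phosphatase gene Dusp13 (51.3 and 39.8 TPM, against 0.967 and 0.145 TPM), the growth factor carrier gene Fgfbp1 (127 and 109.9 TPM, against 3.44 and 3.31 TPM) and the cartilage matrix gene Matn1 (107 and 96.1 TPM, against 3.67 and 2.75 TPM) followed the same pattern. Libraries that did not overlap between the 2 groups were a condition for naming a gene among the largest changes, so this is not a separate result. Among the largest falls, Spic, an Ets-family factor gene, had 8.80 and 10.2 TPM with CX-5461, against 59.9 and 68.5 TPM with rapamycin and 40.7 and 49.97 TPM in untreated cells (log2 difference -2.63, SE 0.16, adjusted p = 8.96e-05). Msc and Etv1 were not among the 10 largest falls and were picked after their values were seen. Msc, a bHLH repressor gene, had 3.28 and 4.22 TPM with CX-5461 and 24.5 and 24.1 TPM with rapamycin. Etv1, another Ets factor gene, had 1.41 and 1.83 TPM with CX-5461 and 10.3 and 8.87 TPM with rapamycin.

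Genes of the 2-cell stage, which a small share of ES cells expresses at any time, had the highest median difference of the lists examined. Of 57 listed genes 45 were tested, 6 of them only because both CX-5461 libraries reached 1 TPM. Of these 45, 42 were higher with CX-5461 (93.3%, against 32.4% of all genes), 1 was lower (2.22%, against 9.18%) and 2 were not called. The list median lay 1.84 above that of all genes (1.70 to 1.97 over the 4 pairs of CX-5461 and rapamycin libraries). The 9 markers of 2-cell-like cells summed to 335 and 308 TPM with CX-5461, against 69.5 and 59.97 TPM with rapamycin and 47.6 and 59.5 TPM in untreated cells. Zscan4d, a telomere-associated zinc finger gene (ENSMUSG00000090714.10, chr7:11161374-11166159, minus strand), had 80.6 and 73.2 TPM with CX-5461, against 19.1 and 18.1 TPM with rapamycin and 13.3 and 18.1 TPM in untreated cells (log2 difference 1.99, SE 0.16, adjusted p = 0.000209). Gm12794, a PRAME-family gene, had 43.3 and 48.8 TPM with CX-5461, against 4.67 and 1.97 TPM with rapamycin and 1.16 and 1.48 TPM in untreated cells (3.52, SE 0.30, adjusted p = 0.000226). Rapamycin replicate 1 lay above replicate 2 for this gene, and both lay far below the CX-5461 libraries. Usp17le, a deubiquitinase gene, had 76.9 and 72.4 TPM with CX-5461 and 7.60 and 6.97 TPM with rapamycin. Calcoco2, an autophagy receptor gene on the same list, was lower, with 165 and 161 TPM with CX-5461, against 267 and 303 TPM with rapamycin (-0.80, SE 0.10). Duxf3, which encodes the Dux factor that switches on these genes, was listed at 0.102 and 0 TPM with CX-5461 and at 0 in both rapamycin and both untreated libraries, and was not tested.

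Most of these genes belong to families of near-identical copies, and the split of reads among the copies is uncertain because only uniquely mapped reads were kept. The letters before the starts of Zscan4c and Zscan4d are shown because both genes were higher and their promoters are near copies. They lie outside the transcripts and do not bear on how reads were assigned. Zscan4c had 66.8 and 60.5 TPM with CX-5461, against 16.3 and 16.7 TPM with rapamycin. The 250 bases before each start (RefSeq, GRCm38.p6) are given 5′ to 3′ on the gene's strand, with TATAAA in capitals, at chr7:11005495-11005744 (plus strand) for Zscan4c and chr7:11166149-11166398 (minus strand) for Zscan4d.
Zscan4c: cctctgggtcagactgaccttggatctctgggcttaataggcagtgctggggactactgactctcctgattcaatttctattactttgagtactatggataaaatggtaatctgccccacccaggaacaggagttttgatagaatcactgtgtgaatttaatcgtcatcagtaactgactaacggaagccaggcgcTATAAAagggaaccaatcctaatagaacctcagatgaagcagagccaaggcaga
Zscan4d: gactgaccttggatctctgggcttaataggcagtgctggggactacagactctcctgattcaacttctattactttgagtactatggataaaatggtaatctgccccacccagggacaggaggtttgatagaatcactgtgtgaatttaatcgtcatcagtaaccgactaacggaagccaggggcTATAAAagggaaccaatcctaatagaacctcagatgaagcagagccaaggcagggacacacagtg
Set on their TATAAA, 232 of 239 shared bases (97.1%) were identical. TATAAA stood in 8 of the 27 list promoters found in RefSeq and in 14.2% of all 27025 promoters of 300 bases searched on both strands.

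Pluripotency genes were on the whole lower with CX-5461 than with rapamycin. All 39 listed genes were tested, of which 17 were lower (43.6%, against 9.18% of all genes), 6 higher (15.4%, against 32.4%) and 16 not called. The median lay 0.52 below that of all genes (-0.56 to -0.43 over the library pairs), but only 0.19 below under quantile scaling. Pou5f1, the core factor OCT4 (ENSMUSG00000024406.16, chr17:35506018-35510772), had 926 and 861 TPM with CX-5461, against 1593 and 1657 TPM with rapamycin and 1631 and 1649.5 TPM in untreated cells (-0.86, SE 0.07, adjusted p = 0.000211). Tcl1, an Akt coactivator gene of ES cells, had 35.9 and 38.6 TPM with CX-5461 and 129 and 130.1 TPM with rapamycin (-1.77, SE 0.10). Otx2, a factor of the primed epiblast, had 1.81 and 1.95 TPM with CX-5461, against 9.48 and 9.16 TPM with rapamycin and 4.57 and 5.27 TPM in untreated cells (-1.84, SE 0.16). Zfp42 (REX1) had 165 and 378 TPM with CX-5461, which lie far apart, and 632 and 667 TPM with rapamycin. Sox2 did not pass the test (388 and 391 TPM with CX-5461, 410.5 and 461 TPM with rapamycin), nor did Klf4 (352 and 364 TPM, against 274 and 268 TPM). Dnmt3l, the cofactor of de novo DNA methylation, was the largest rise on the list, at 47.8 and 38.05 TPM with CX-5461 and 9.61 and 9.11 TPM with rapamycin (2.08, SE 0.15).

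Targets of p53 were higher with CX-5461 in 47 of 57 cases (82.5%, against 32.4% of all genes). None of them was lower (against 9.18% of all genes) and 10 were not called. Their median lay 1.16 above that of all genes (1.10 to 1.29 over the library pairs). Trp53 itself was lower, at 440.0 and 417 TPM with CX-5461, against 682 and 692 TPM with rapamycin and 673 and 667 TPM in untreated cells (-0.68, SE 0.07, adjusted p = 0.000505). Cdkn1a, the cell cycle inhibitor p21 (ENSMUSG00000023067.13, chr17:29090976-29100727), had 1171 and 1145 TPM with CX-5461, against 360.3 and 359 TPM with rapamycin and 277 and 313 TPM in untreated cells (1.68, SE 0.08, adjusted p = 5.21e-05). Plk2, a p53-induced kinase gene, had 501 and 536 TPM with CX-5461 and 70.1 and 65.7 TPM with rapamycin (2.92, SE 0.18). Pmaip1, which encodes the BH3 protein NOXA, had 171 and 162 TPM with CX-5461, against 17.95 and 19.9 TPM with rapamycin and 11.5 and 11.4 TPM in untreated cells (3.07, SE 0.11). Mdm2, the ligase that degrades p53, had 399 and 420.4 TPM with CX-5461 and 133 and 121 TPM with rapamycin (1.68, SE 0.14). The libraries of the 2 groups did not overlap for any of these genes, which also held for most genes. Over all tested genes, both CX-5461 libraries lay above both rapamycin libraries in 52.1% and below them in 21.5%. Among 32 tested genes of the Bcl2 family and apoptosis, 15 were higher (46.9%, against 32.4% of all genes) and 1 lower (3.12%, against 9.18%). Their median lay only 0.13 above that of all genes, and 12 were higher and 7 lower once the exon length trend was taken out. Fas, a death receptor gene, had 59.0 and 51.4 TPM with CX-5461 and 8.27 and 11.7 TPM with rapamycin, Apaf1 of the apoptosome 39.0 and 48.8 TPM with CX-5461 and 12.6 and 7.397 TPM with rapamycin, and Bax did not pass the test (577 and 522 TPM, against 486 and 553 TPM). The lower member was Bak1, the pore-forming partner of Bax, at 64.9 and 68.7 TPM with CX-5461, against 178 and 161 TPM with rapamycin and 43.3 and 72.3 TPM in untreated cells, so that the rapamycin libraries were the ones that stood apart.

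Of the 45 p53 list promoters found in RefSeq, Cdkn1a alone held 2 p53 half-site cores spaced as in a full site (CATG, 6 bases of any kind, CATG, a pattern that reads the same on both strands), which stood in 0.77% of all promoters. It is shown because Cdkn1a is the classic target by which p53 stops the cell cycle. The match lay 48 to 35 bases before the first of its 2 RefSeq starts, in capitals in the 250 bases at chr17:29090729-29090978 (GRCm38.p6, plus strand).
Cdkn1a: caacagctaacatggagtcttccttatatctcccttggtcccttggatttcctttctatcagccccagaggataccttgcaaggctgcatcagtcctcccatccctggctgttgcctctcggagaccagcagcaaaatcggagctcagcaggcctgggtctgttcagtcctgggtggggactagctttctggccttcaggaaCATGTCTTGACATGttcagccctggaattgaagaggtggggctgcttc
A match is a description of letters, not a site of binding.

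**Figure D2:**
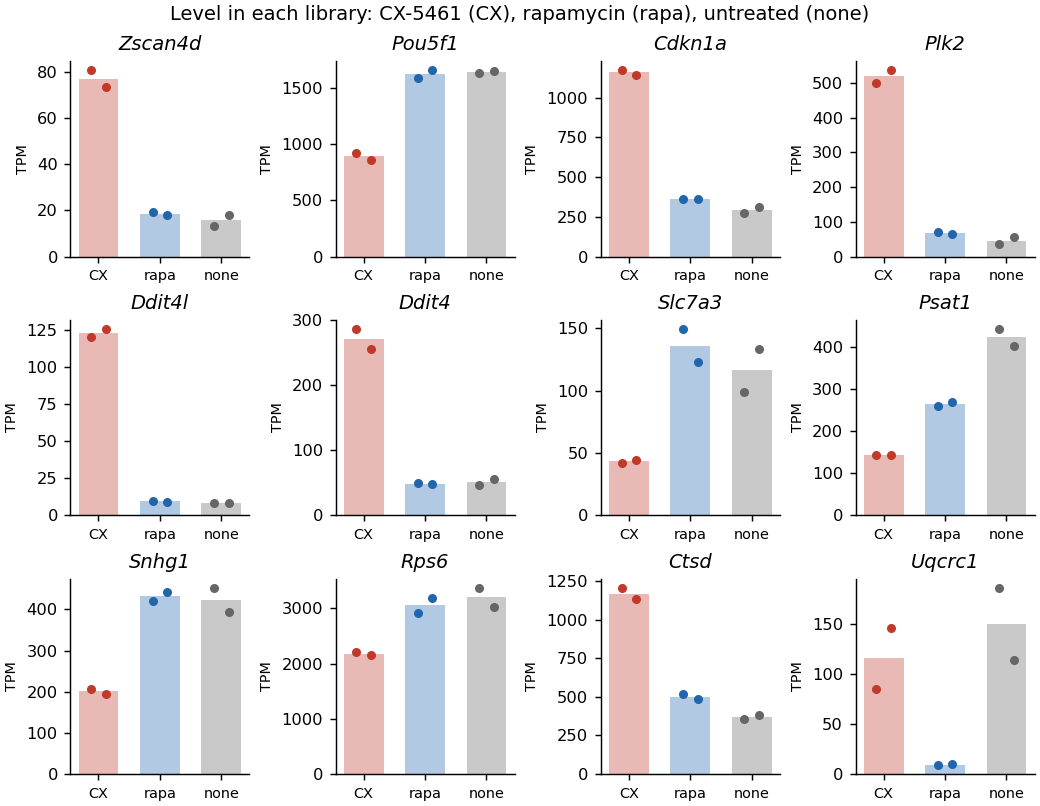
Level in TPM (y axis, from 0) of 12 genes in each library of ES cells treated with CX-5461 (CX, red), treated with rapamycin (rapa, blue) or untreated (none, grey). Points are libraries and bars are means of 2. The CX-5461 libraries stand apart from the others for 11 of the genes, and the rapamycin libraries for Uqcrc1. For Psat1, untreated cells are highest, rapamycin-treated cells lower and CX-5461-treated cells lowest.

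Genes of the mTOR pathway were called about as often as genes in general. All 74 listed genes were tested, of which 21 were higher (28.4%, against 32.4% of all genes), 6 lower (8.11%, against 9.18%) and 47 not called, with 12 higher and 15 lower under median-ratio scaling. The list median lay 0.01 below that of all genes, lay 0.075 above it under quantile scaling, and ranged from -0.0299 to 0.079 with 1 library left out. Ddit4l, a brake on complex 1 (ENSMUSG00000046818.7, chr3:137621612-137628333), had 120.0 and 126 TPM with CX-5461, against 9.86 and 8.80 TPM with rapamycin and 8.04 and 8.31 TPM in untreated cells (3.58, SE 0.12, adjusted p = 3.68e-05). Its relative Ddit4 (REDD1) had 286 and 256 TPM with CX-5461, against 48.8 and 48.3 TPM with rapamycin and 46.7 and 56.4 TPM in untreated cells (2.46, SE 0.12, adjusted p = 5.21e-05). The CX-5461 libraries lay above the rapamycin libraries for both genes, as they did for 52.1% of all tested genes. The rapamycin libraries lay close to the untreated ones for both genes. Ddit4l is also on the 2-cell and p53 lists, and Ddit4 and Sesn2 are also on the p53 list and the ATF4 list below, so these lists share results. Further brakes that were higher, picked after their values were seen, were the leucine sensor gene Sesn2 (252 and 266 TPM with CX-5461, 128 and 107 TPM with rapamycin), Sesn3 (22.7 and 27.5 TPM, against 10.96 and 8.55 TPM), Tsc2, a subunit of the complex that switches off Rheb (109.7 and 118 TPM, against 88.6 and 61.3 TPM), and Pdcd4, an inhibitor of the helicase eIF4A that S6 kinase marks for destruction (51.2 and 54.9 TPM, against 20.6 and 23.1 TPM). Sesn1 did not pass the test (23.0 and 26.7 TPM, against 24.6 and 23.8 TPM), nor did the brakes Tsc1 (log2 difference 0.41), Nprl2 (0.14), Nprl3 (0.25), Castor1 (0.12), Akt1s1 (0.09) and Stk11 (0.03). Upstream, Irs2, the insulin receptor substrate, had 19.8 and 26.0 TPM with CX-5461 and 9.66 and 7.11 TPM with rapamycin (1.35, SE 0.21), and Grb10, an adaptor that dampens insulin signalling, 90.9 and 104 TPM with CX-5461 and 48.1 and 39.6 TPM with rapamycin.

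The kinase and its partners differed less. Mtor had 27.6 and 33.5 TPM with CX-5461 and 27.9 and 24.2 TPM with rapamycin, and neither it nor Rptor (31.9 and 38.2 TPM, against 30.6 and 23.6 TPM), Rictor (13.7 and 20.2 TPM, against 14.9 and 11.4 TPM), Rps6kb1 (32.1 and 34.1 TPM, against 28.6 and 29.5 TPM) or the rapamycin receptor gene Fkbp1a (180.2 and 155 TPM, against 147 and 148 TPM) passed the test. The 6 lower genes were the AMPK subunit gene Prkag2 and 5 genes of the translation branch. Among these, Rps6, the ribosomal protein that S6 kinase phosphorylates, had 2208 and 2159 TPM with CX-5461, against 2919.5 and 3189 TPM with rapamycin (-0.48, SE 0.08, and 0.03 under quantile scaling). Eif4ebp1, the mTOR-controlled repressor of the cap-binding factor, had 327 and 291 TPM with CX-5461 and 375 and 425 TPM with rapamycin (-0.37, SE 0.11), and the cap-binding factor Eif4e itself 44.3 and 61.8 TPM with CX-5461 and 73.4 and 85.8 TPM with rapamycin.

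ATF4 is the stress factor that turns on genes of amino acid supply. Of 42 listed genes 41 were tested, of which 17 were higher (41.5%, against 32.4% of all genes), 10 lower (24.4%, against 9.18%) and 14 not called, with 13 higher and 16 lower under median-ratio scaling, and the median lay 0.05 below that of all genes (-0.18 to 0.04 over the library pairs, and 0.12 above it without CX-5461 replicate 2). By role, of 13 enzymes of amino acid and one-carbon metabolism 3 were higher and 7 lower, and differences between roles were not tested. Psat1, the aminotransferase of serine synthesis (ENSMUSG00000024640.9, chr19:15904678-15947337, minus strand), had 142 and 144 TPM with CX-5461, against 261 and 269.8 TPM with rapamycin and 443 and 403 TPM in untreated cells (-0.88, SE 0.13, adjusted p = 0.00214). Untreated cells were highest and CX-5461-treated cells lowest for this gene, and the same order held for Phgdh, the first enzyme of the pathway, at 93.0 and 80.2 TPM with CX-5461, 143 and 139.7 TPM with rapamycin and 192 and 195 TPM in untreated cells. Asns, asparagine synthetase, had 411 and 453 TPM with CX-5461, 638 and 619 TPM with rapamycin and 748 and 727 TPM in untreated cells (-0.54, SE 0.08, adjusted p = 0.00238). Lower also were the mitochondrial one-carbon genes Mthfd1l (32.4 and 34.5 TPM with CX-5461, 80.4 and 64.9 TPM with rapamycin), Mthfd2 and Shmt2, and the proline synthesis gene Pycr1 (13.97 and 14.7 TPM, against 25.1 and 27.5 TPM). The 3 higher enzymes were Cbs of transsulfuration, at 106 and 102 TPM with CX-5461 and 31.9 and 28.7 TPM with rapamycin, its pathway partner Cth, and Aldh1l2.

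Of 10 stress factors and regulators on the same list, 5 were higher and only Atf4 was lower. Of all tested genes 32.4% were higher and 9.18% lower. Atf4 had 229 and 226 TPM with CX-5461, against 303 and 299.6 TPM with rapamycin and 304 and 342 TPM in untreated cells (-0.41, SE 0.08, adjusted p = 0.00836), and its protein is known to be set largely at translation. Atf3, a factor induced by ATF4 and by other stresses, had 83.9 and 86.5 TPM with CX-5461, against 17.3 and 15.9 TPM with rapamycin and 14.03 and 16.00 TPM in untreated cells (2.29, SE 0.14, adjusted p = 8.43e-05). Ddit3 (CHOP) had 131 and 140.3 TPM with CX-5461 and 49.1 and 58.2 TPM with rapamycin, whereas the pseudokinase gene Trib3 did not pass the test (35.8 and 32.3 TPM, against 29.5 and 28.1 TPM). Transporters went both ways. The neutral amino acid carrier gene Slc38a2 had 196 and 234 TPM with CX-5461 and 58.1 and 55.1 TPM with rapamycin (1.90, SE 0.14), and the cystine carrier gene Slc7a11 7.49 and 9.39 TPM with CX-5461 and 3.64 and 3.12 TPM with rapamycin. Slc7a3, a carrier of arginine and lysine (ENSMUSG00000031297.14, chrX:101079210-101086020, minus strand), had the largest fall on the list, at 42.0 and 44.2 TPM with CX-5461, against 149 and 123 TPM with rapamycin and 99.1 and 133 TPM in untreated cells (-1.63, SE 0.16, adjusted p = 0.0004). Among other targets, 7 of 9 tested were higher, led by Ddit4 and by the secreted factor Gdf15 (73.7 and 66.1 TPM, against 17.5 and 18.7 TPM). Chac1, which degrades glutathione, was lower, at 4.80 and 6.86 TPM with CX-5461, against 16.4 and 12.7 TPM with rapamycin and 23.5 and 21.1 TPM in untreated cells (-1.19, SE 0.20).

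**Figure D3:**
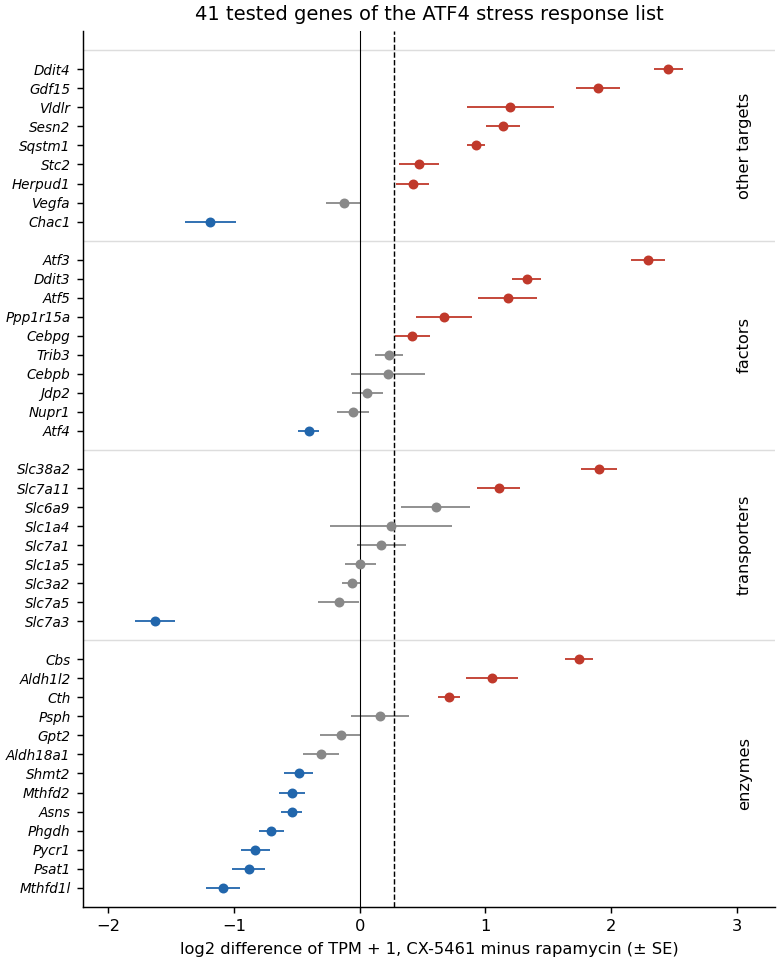
Log2 difference of TPM + 1 (x axis, CX-5461 minus rapamycin, with standard errors, 2 libraries per group) for the 41 tested genes of the ATF4 list, grouped by role (y axis). Red genes were called higher, blue genes lower and grey genes not called. The dashed line is the median of all tested genes (0.27). Enzymes make up 7 of the 10 lower genes.

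Promoters of the ATF4 list were searched for a common element. The composite element read by ATF4 with a C/EBP partner was searched as TGATGNAA on both strands. It stood in 10 of the 37 list promoters found in RefSeq and in 4.06% of all 27025 promoters. Of these 10 genes, 3 were higher with CX-5461 (Atf3, Herpud1 and Slc7a11), 3 lower (Asns, Chac1 and Pycr1), 3 not called (Nupr1, Slc1a4 and Trib3) and Fgf21 was not tested. Herpud1, of ER-associated degradation, had only 29.6 and 29.1 TPM with CX-5461 and 20.8 and 22.5 TPM with rapamycin (adjusted p = 0.0376). The promoters of the 3 lower genes and then of 2 higher genes are shown to set the letters side by side, each as the 250 bases before the RefSeq start (GRCm38.p6), 5′ to 3′ on the gene's strand, with the match in capitals. They lie at chr2:119350992-119351241 (plus, Chac1), chr11:120643749-120643998 (minus, Pycr1), chr6:7693210-7693459 (minus, Asns), chr1:191183334-191183583 (minus, Atf3) and chr3:50443614-50443863 (minus, Slc7a11).
Chac1: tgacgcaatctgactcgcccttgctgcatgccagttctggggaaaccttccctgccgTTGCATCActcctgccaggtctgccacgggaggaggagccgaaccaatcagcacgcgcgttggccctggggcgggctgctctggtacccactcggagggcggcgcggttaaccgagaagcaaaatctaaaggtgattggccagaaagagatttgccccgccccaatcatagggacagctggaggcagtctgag
Pycr1: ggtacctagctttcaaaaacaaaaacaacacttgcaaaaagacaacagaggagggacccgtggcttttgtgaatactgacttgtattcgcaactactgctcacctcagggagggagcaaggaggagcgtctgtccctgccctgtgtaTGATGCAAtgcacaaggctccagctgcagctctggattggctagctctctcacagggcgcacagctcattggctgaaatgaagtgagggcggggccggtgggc
Asns: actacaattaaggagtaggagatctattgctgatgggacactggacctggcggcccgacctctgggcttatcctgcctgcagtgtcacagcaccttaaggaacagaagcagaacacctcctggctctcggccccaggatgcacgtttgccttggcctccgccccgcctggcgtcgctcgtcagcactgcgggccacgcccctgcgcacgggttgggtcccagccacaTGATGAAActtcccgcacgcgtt
Atf3: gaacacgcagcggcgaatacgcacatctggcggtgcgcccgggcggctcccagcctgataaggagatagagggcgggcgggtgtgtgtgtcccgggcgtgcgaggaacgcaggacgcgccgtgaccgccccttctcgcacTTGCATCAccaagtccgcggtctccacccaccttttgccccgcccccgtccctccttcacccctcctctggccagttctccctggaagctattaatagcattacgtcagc
Slc7a11: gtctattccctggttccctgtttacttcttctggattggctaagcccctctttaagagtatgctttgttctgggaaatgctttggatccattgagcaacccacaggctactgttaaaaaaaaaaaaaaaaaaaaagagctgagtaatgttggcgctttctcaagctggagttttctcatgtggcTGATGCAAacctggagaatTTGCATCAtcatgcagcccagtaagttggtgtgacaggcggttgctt
The match began 193 bases before the start in Chac1, 103 in Pycr1, 23 in Asns and 110 in Atf3, and Slc7a11 held 2, beginning 66 and 47 bases before. Chac1, Atf3 and the second match of Slc7a11 carried TTGCATCA, the reverse complement of the TGATGCAA in Pycr1. Among the aminoacyl-tRNA synthetase genes, 5 of 13 promoters held the letters, 2 of them of lower genes (Tars and Yars) and 3 of genes not called. Of the 20 synthetase genes 1 was higher (5%, against 32.4% of all genes) and 5 lower (25%, against 9.18%), with none higher and 14 lower under median-ratio scaling and 16 lower once the exon length trend was taken out. Among the lower ones were Yars at 102 and 105 TPM with CX-5461 and 182 and 157 TPM with rapamycin (-0.70, SE 0.11), and Kars at 291 and 289 TPM, against 411 and 391 TPM (-0.46, SE 0.08).

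Ribosomal protein mRNAs were lower in CX-5461-treated than in rapamycin-treated cells as a share of the library. Of 83 cytosolic ribosomal protein genes, 62 were lower (74.7%, against 9.18% of all genes), none higher (against 32.4%) and 21 not called. The median lay 0.71 below that of all genes (-0.96 to -0.47 over the library pairs). The sizes were small, and under quantile scaling only 19 were lower, 3 were higher and the median lay 0.08 below. Rpl4 had 2678 and 2562 TPM with CX-5461, against 3464 and 3564 TPM with rapamycin and 3369.6 and 3438 TPM in untreated cells (-0.42, SE 0.07, adjusted p = 0.00297). Rps20 had 321 and 305 TPM with CX-5461, against 541 and 622 TPM with rapamycin (-0.89, SE 0.09), and Rpl22l1, a paralogue of Rpl22, 168 and 135 TPM with CX-5461 and 316 and 381 TPM with rapamycin (-1.20, SE 0.25). Ribosomal protein genes have many processed copies, so single levels are uncertain. Translation factors behaved alike, with 22 of 50 lower (44%, against 9.18% of all genes) and 3 higher (6%, against 32.4%). Once the exon length trend was taken out, 35 were lower and 1 higher. The median lay 0.58 below all genes, and 0.06 below under quantile scaling. The elongation factor gene Eef1a1 had 5189 and 5121 TPM with CX-5461 and 6690.1 and 6593 TPM with rapamycin (-0.37, SE 0.09, but 0.16 and not called under quantile scaling), whereas Eef2 did not pass the test (2152 and 2179 TPM, against 2874 and 2494 TPM).

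Of 110 listed ribosome assembly factors 109 were tested, of which 26 were lower (23.9%, against 9.18% of all genes), 6 higher and 77 not called (median 0.39 below all genes). Under median-ratio scaling 57 were lower and 3 higher, and once the exon length trend was taken out 70 were lower and 3 higher. Npm1, the abundant nucleolar histone chaperone, had 1934 and 1882 TPM with CX-5461, against 2755 and 2894 TPM with rapamycin and 3048 and 2974 TPM in untreated cells (-0.57, SE 0.07, adjusted p = 0.000809). The ribosomal RNA methyltransferase gene Fbl and nucleolin (Ncl) had 419 and 372 TPM and 387 and 406 TPM with CX-5461, against 522 and 676 TPM and 595 and 576 TPM with rapamycin. The lower genes of this list also included the snoRNP protein gene Nop56 (476 and 481 TPM with CX-5461, 754 and 608 TPM with rapamycin) and the large subunit factor gene Ppan (173 and 164 TPM, against 275 and 283 TPM), while Utp20 was higher (96.8 and 116 TPM, against 69.9 and 53.5 TPM). For polymerase I and its factors, 5 of 26 genes were higher (19.2%, against 32.4% of all genes) and 6 lower (23.1%, against 9.18%), with 1 higher and 10 lower under median-ratio scaling and 1 and 12 once the exon length trend was taken out. The largest subunit gene Polr1a had 92.2 and 99.7 TPM with CX-5461 and 73.4 and 48.1 TPM with rapamycin, and Polr1b had 55.8 and 58.6 TPM, against 80.6 and 60.5 TPM. Neither passed the test, nor did the promoter factor gene Ubtf (145 and 158 TPM, against 244 and 151 TPM). Rrn3, the initiation factor that growth signals control, had 199.8 and 207 TPM with CX-5461, against 158 and 139.6 TPM with rapamycin and 139 and 162 TPM in untreated cells (0.45, SE 0.11, adjusted p = 0.0162). Ttf1, the termination factor, was also higher (35.5 and 43.2 TPM, against 20.7 and 16.98 TPM), as was Cavin1, a caveolar coat protein also known as a transcript release factor (78.8 and 77.5 TPM, against 22.8 and 23.9 TPM), which fibroblasts also express. Topoisomerase II genes went apart, with Top2a at 355 and 376 TPM with CX-5461 and 527 and 463 TPM with rapamycin (-0.43, SE 0.10), and Top2b at 37.1 and 41.3 TPM with CX-5461 and 22.9 and 19.4 TPM with rapamycin (0.86, SE 0.18).

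Small nucleolar RNAs guide modification of ribosomal RNA and are cut from the introns of host transcripts. Of 162 snoRNA and scaRNA genes tested, 58 were lower (35.8%, against 9.18% of all genes), 2 were higher (1.23%, against 32.4%) and 102 were not called, with a median 0.99 below that of all genes. Lower were 21 of 41 C/D box genes (Snord names) and 12 of 24 H/ACA box genes (Snora names). Snord83b (ENSMUSG00000077734.1, chr15:80078498-80078591, minus strand) had 11.1 and 10.5 TPM with CX-5461, against 81.7 and 91.8 TPM with rapamycin and 119.6 and 126 TPM in untreated cells (-2.89, SE 0.12, adjusted p = 4.05e-05). Snord34 had 28.0 and 31.3 TPM with CX-5461, against 165 and 170.0 TPM with rapamycin, and Snord87 5.43 and 7.44 TPM, against 42.2 and 43.5 TPM. Snora73a rested on libraries that lay far apart, with 2.04 and 4.96 TPM, against 8.62 and 56.7 TPM. Libraries were made from poly-A RNA and snoRNA genes mostly lie in introns of other genes, so their values cannot be told apart from reads of the surrounding transcripts. Of 25 listed snoRNA hosts 22 were tested, of which 14 were lower (63.6%, against 9.18% of all genes) and 2 higher (9.09%, against 32.4%). The median lay 0.93 below all genes (-1.05 to -0.81 over the library pairs). Snhg1 had 207 and 195 TPM with CX-5461, against 420.3 and 443 TPM with rapamycin and 452 and 392.4 TPM in untreated cells (-1.10, SE 0.10, adjusted p = 0.000309). Gas5 had 109.8 and 100.1 TPM with CX-5461 and 206 and 216 TPM with rapamycin, and Snhg12 127 and 117 TPM with CX-5461 and 239.7 and 248 TPM with rapamycin. Snhg5 had 40.6 and 58.3 TPM with CX-5461 and 109 and 114 TPM with rapamycin. Snhg11, a neuronal host transcript, was higher (14.5 and 19.4 TPM, against 8.16 and 4.26 TPM).

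**Figure D4:**
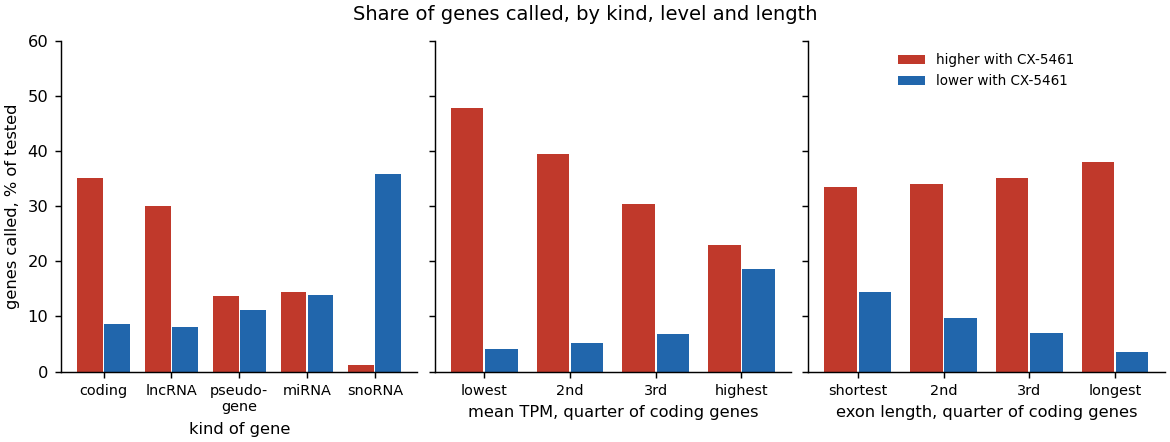
Percent of tested genes called higher (red) and lower (blue) with CX-5461, by kind of gene, by quartile of mean level over the 4 libraries and by quartile of exon length. The level and length quartiles are of protein-coding genes. Small nucleolar RNA genes are the kind with more lower (35.8%) than higher genes (1.23%) by the widest margin, and the highest level quartile has 22.9% higher and 18.7% lower.

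Level and length of a gene went with the direction of change. Among 13860 protein-coding genes, 4882 were higher (35.2%) and 1204 lower (8.69%). In the quartile with the highest mean level 22.9% were higher and 18.7% lower, and in the quartile with the lowest level 47.8% were higher and 4.07% lower, where 908 of 3465 genes had passed the level filter through CX-5461 alone. The shortest quartile by exon length had 33.6% higher and 14.4% lower genes, and the longest 38% higher and 3.61% lower. Protein-coding genes on the X chromosome were higher in 44.2% of 480 cases and lower in 5.62%, against 35.2% and 8.69% of all protein-coding genes. Among chromosomes with 100 or more such genes, X had the highest share of higher genes. Chromosome 18 followed with 40.5%, and chromosome 5 had the lowest share, 29.8%.

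Lysosome and autophagy genes, which the mTOR kinase holds down through TFEB, were higher with CX-5461 than with rapamycin in 37 of 59 cases (62.7%, against 32.4% of all genes) and lower in none (median 0.31 above all genes). Under median-ratio scaling 23 were higher and 1 lower, and once the exon length trend was taken out 24 were higher and 5 lower. Ctsd, a lysosomal protease gene, had 1206 and 1132 TPM with CX-5461, against 516 and 484 TPM with rapamycin and 355 and 385 TPM in untreated cells (1.22, SE 0.09, adjusted p = 0.000128). Gpnmb, a lysosomal glycoprotein gene, had 87.7 and 89.7 TPM with CX-5461, against 19.03 and 17.1 TPM with rapamycin, and Gaa, acid glucosidase, 215 and 211 TPM, against 70.5 and 58.7 TPM. Atg9b, of autophagosome membranes, had 22.7 and 22.3 TPM with CX-5461 and 2.42 and 2.82 TPM with rapamycin (2.70, SE 0.16). The factor genes themselves did not pass the test, with Tfeb at 31.0 and 36.3 TPM with CX-5461 and 51.4 and 40.1 TPM with rapamycin, and Tfe3 at 81.0 and 82.0 TPM, against 62.0 and 75.7 TPM. Fibroblasts express these genes too, their 8 defining markers summed to 2524 and 2619 TPM with CX-5461 and 1289 and 1042 TPM with rapamycin in the same libraries, and their part in this result was not tested.

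Of 39 sterol and lipid synthesis genes, 8 were higher (20.5%, against 32.4% of all genes) and 6 lower (15.4%, against 9.18%), with 4 higher and 11 lower under median-ratio scaling and 4 and 17 once the exon length trend was taken out. The sterol-sensing escort gene Scap had 101 and 107 TPM with CX-5461 and 42.9 and 33.2 TPM with rapamycin, and Lpin1, a phosphatidate phosphatase gene that complex 1 keeps out of the nucleus, 42.1 and 60.6 TPM, against 12.3 and 9.70 TPM. Srebf1 (79.4 and 79.7 TPM, against 87.5 and 66.1 TPM) and Srebf2 (151 and 159 TPM, against 185 and 132 TPM) did not pass the test. Of 37 tested genes of glycolysis and the hypoxia response, 9 were higher (24.3%, against 32.4% of all genes) and 9 lower (24.3%, against 9.18%). Under median-ratio scaling 6 were higher and 19 lower. The higher ones included Hif1a, the hypoxia factor, at 143 and 160.1 TPM with CX-5461, against 67.9 and 70.3 TPM with rapamycin and 52.4 and 61.0 TPM in untreated cells (1.12, SE 0.11), and the vasoactive peptide gene Adm, at 38.8 and 35.3 TPM, against 5.67 and 4.76 TPM. The lower ones included glycolytic enzymes such as Aldoa (1084 and 1034 TPM, against 1622 and 1628 TPM) and Pkm (1198 and 1095 TPM, against 1596 and 1451 TPM).

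Respiratory chain genes of the nucleus were lower in 21 of 75 cases (28%, against 9.18% of all genes; 41 once the exon length trend was taken out) and higher in 3 (median 0.51 below all genes, 0.15 below under quantile scaling). The ATP synthase gene Atp5b had 1465 and 1400.4 TPM with CX-5461, against 2138 and 2117 TPM with rapamycin (-0.57, SE 0.10). Uqcrc1, a core subunit of complex III (ENSMUSG00000025651.14, chr9:108936633-108949623), was unlike the rest, at 85.6 and 146 TPM with CX-5461, 9.06 and 9.55 TPM with rapamycin and 187 and 115 TPM in untreated cells (3.45, SE 0.29, adjusted p = 0.000224). Here rapamycin stood apart and CX-5461-treated cells overlapped the untreated ones. Of the 13 mitochondrially encoded mRNAs only mt-Nd5 was called, at 2174 and 2214 TPM with CX-5461 and 1771 and 1625 TPM with rapamycin (0.37, SE 0.08). Cdx2, a trophectoderm factor, was another gene for which the untreated level (5.65 and 6.81 TPM) was nearer to CX-5461 (10.3 and 11.4 TPM) than to rapamycin (2.30 and 3.38 TPM).

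Replication and mitosis genes were called lower more often than higher. Of 56 S phase genes 21 were lower (37.5%, against 9.18% of all genes), none higher and 35 not called, with a median 0.52 below all genes. Of 50 G2/M genes 14 were lower (28%), 2 higher and 34 not called, with a median 0.42 below. The lower genes numbered 39 and 31 under median-ratio scaling and 46 and 36 once the exon length trend was taken out. Pold2, a subunit of the replicative polymerase delta, had 68.5 and 66.1 TPM with CX-5461, against 147 and 161 TPM with rapamycin (-1.18, SE 0.11), and Dut, which removes dUTP, 135 and 122 TPM, against 213 and 269.8 TPM. Plk1, the mitotic kinase, had 142 and 136 TPM with CX-5461 and 251 and 242 TPM with rapamycin (-0.82, SE 0.08). G1 regulators were higher in 9 of 20 cases (45%, against 32.4% of all genes) and lower in 1 (5%, against 9.18%). Once the exon length trend was taken out, 9 were higher and 5 lower. The higher ones included the retinoblastoma gene Rb1 (46.8 and 47.3 TPM, against 9.98 and 9.23 TPM), the p53 target Ccng1 (737 and 773 TPM, against 194 and 198 TPM) and the CDK inhibitor gene Cdkn1c (26.3 and 23.3 TPM, against 3.82 and 6.18 TPM). The Myc antagonists Mxd1 (27.4 and 28.7 TPM, against 8.09 and 6.21 TPM) and Mxd4 (30.8 and 32.0 TPM, against 6.21 and 6.25 TPM) were higher, and so was Myc (27.8 and 30.9 TPM, against 13.5 and 13.4 TPM). On a list of chromatin genes and other regulators of the 2-cell program, 5 of 40 were higher (12.5%, against 32.4% of all genes) and 6 lower (15%, against 9.18%). Under median-ratio scaling 1 was higher and 14 lower, and 1 and 18 once the exon length trend was taken out. The list holds Myc, and also Nelfa, whose product the paper describes as activating Dux. Trim28, the corepressor KAP1 of endogenous retroviruses, had 704 and 701 TPM with CX-5461, against 1302 and 1097 TPM with rapamycin and 985 and 1176 TPM in untreated cells (-0.77, SE 0.12), and Chaf1b of the CAF-1 histone chaperone 82.8 and 91.3 TPM, against 141 and 149 TPM (-0.73, SE 0.10).

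Several groups that fibroblasts also express were higher together. All 43 fibroblast markers were tested and 41 were higher with CX-5461 (95.3%, against 32.4% of all genes). Their median lay 0.95 above all genes (0.89 to 0.97 over the library pairs). Col1a1 had 1062 and 1103 TPM with CX-5461, against 603 and 435 TPM with rapamycin and 221 and 305 TPM in untreated cells (1.08, SE 0.19). Immediate early genes were higher in 32 of 38 cases (84.2%, against 32.4% of all genes) and lower in 1 (2.63%, against 9.18%), with a median 0.95 above all genes. The AP-1 subunit gene Fosl1 had 34.9 and 31.0 TPM with CX-5461 and 5.63 and 5.00 TPM with rapamycin, and Ier2, the lower one, 263 and 272 TPM, against 464 and 483 TPM. Genes of NF-kB and interferon responses were higher in 29 of 36 cases (80.6%, against 32.4% of all genes). Lower was 1 (2.78%, against 9.18%), and the median lay 0.87 above all genes. The antiviral gene Ifit3 had 98.5 and 85.4 TPM with CX-5461, against 11.7 and 21.2 TPM with rapamycin and 13.0 and 13.4 TPM in untreated cells (2.46, SE 0.29, adjusted p = 0.000835). The part of fibroblast RNA in these results was not tested.

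Genes of other early lineages were called higher in part. Of 20 tested primitive endoderm genes 11 were higher (55%, against 32.4% of all genes) and 2 lower, and the 6 defining markers summed to 26.5 and 29.1 TPM with CX-5461, against 7.06 and 6.84 TPM with rapamycin and 4.04 and 4.32 TPM in untreated cells. Pdgfra, 1 of these 6, and Sparc are on the fibroblast list too, the 8 defining fibroblast markers summed to 2524 and 2619 TPM with CX-5461 and 1289 and 1042 TPM with rapamycin, and their part in this result was not tested. Gata6, the factor that sets up this lineage, had 11.6 and 12.3 TPM with CX-5461 and 1.52 and 1.19 TPM with rapamycin (2.47, SE 0.17), while Gata4 did not pass the test (1.55 and 2.01 TPM, against 1.38 and 2.37 TPM). Trophectoderm genes were higher in 11 of 21 cases (52.4%, against 32.4% of all genes) and lower in 2 (9.52%, against 9.18%). Once the exon length trend was taken out, 7 were higher and 6 lower. The 7 trophectoderm markers summed to 126 and 130 TPM with CX-5461, 95.3 and 97.1 TPM with rapamycin and 92.9 and 109 TPM in untreated cells. Among the higher genes, the keratin gene Krt7 had 26.9 and 20.9 TPM with CX-5461 and 0.772 and 0.880 TPM with rapamycin (3.76, SE 0.20). The tight junction gene Cldn6 had 24.9 and 21.9 TPM, against 0.909 and 2.07 TPM. The lower genes were Tead4 (-0.87) and Atp1b1 (-0.55), and 8 genes were not called. Of 34 keratin and epidermal genes 25 were tested, 9 of them only through CX-5461. Of these 25, 18 were higher (72%, against 32.4% of all genes) and 1 lower (4%, against 9.18%). The level filter fixed the direction of those 9, Krt15 among them, so the count of higher genes is partly its doing. Krt15 had 22.0 and 18.7 TPM with CX-5461 and was listed at 0 in both rapamycin and both untreated libraries. Of 24 tested genes of the germ layers and the primed epiblast, 13 were higher (54.2%, against 32.4% of all genes). Lower were 2 (8.33%, against 9.18%), Gsc (-1.75) and Otx2 (-1.84), and 9 were not called. Of these 24, 4 were tested only through CX-5461, Wnt3 among them. Wnt3, a ligand of the primitive streak, had 10.9 and 9.31 TPM with CX-5461 and 0.600 and 0.455 TPM with rapamycin (2.86, SE 0.17). The streak factor gene T had 29.4 and 25.7 TPM, against 6.88 and 5.24 TPM.

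**Figure D5:**
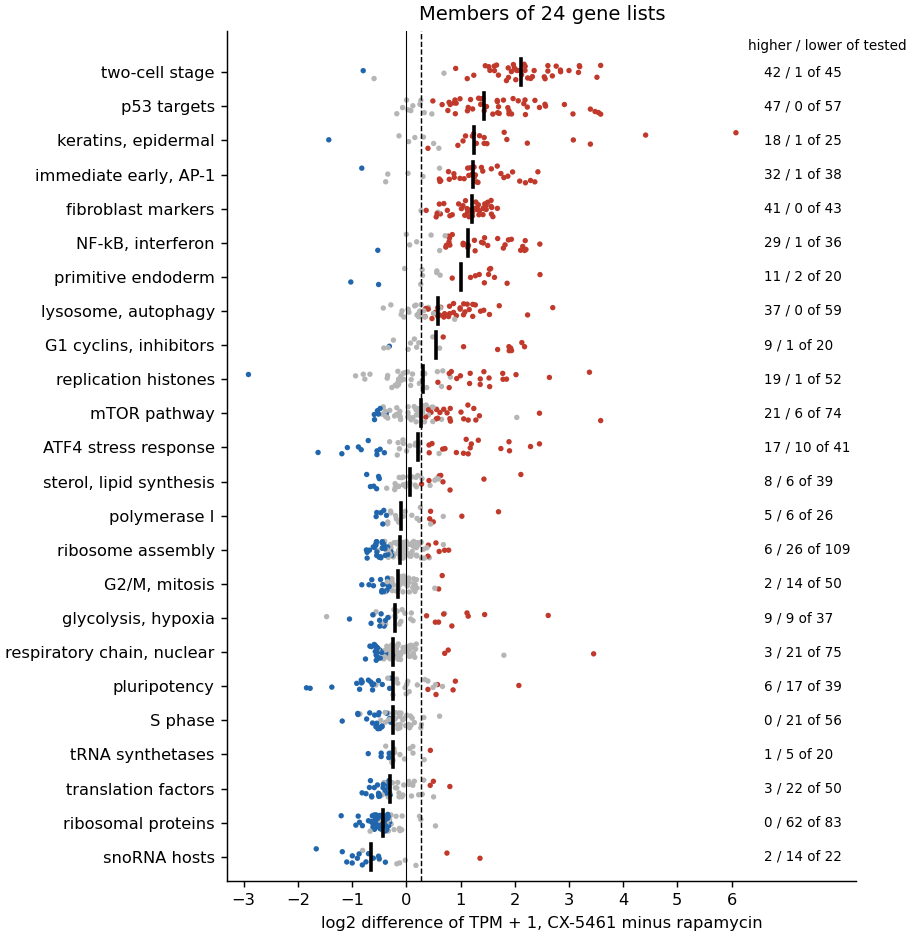
Log2 difference of TPM + 1 (x axis, CX-5461 minus rapamycin) of the tested members of 24 gene lists (y axis, ordered by median). Red points were called higher, blue lower and grey not called, black bars are list medians, the dashed line is the median of all tested genes (0.27), and the numbers at the right give higher and lower genes of those tested. Lists run in order from 2-cell stage genes (median 1.84 above all genes) to snoRNA hosts (0.93 below).

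Of 21 tested heat shock genes 6 were higher (28.6%, against 32.4% of all genes) and 3 lower, with 6 and 11 under median-ratio scaling (median 0.32 below all genes, 0.18 above under quantile scaling). The inducible chaperone gene Hspa1a was at 30.7 and 29.6 TPM with CX-5461 and 3.22 and 3.12 TPM with rapamycin (2.90, SE 0.16), whereas Hsp90ab1 did not pass the test (3437 and 3294 TPM, against 4289.8 and 3959.7 TPM). Hspa1a and Hspa1b are near-identical copies, so the split between them is uncertain. Of 27 antioxidant genes 15 were higher (55.6%, against 32.4% of all genes) and 5 lower (18.5%, against 9.18%), or 9 and 6 under median-ratio scaling. Among the higher ones were Nqo1, a quinone reductase gene under NRF2 (201 and 189.9 TPM, against 53.8 and 58.9 TPM), and Gsto1 (279 and 251 TPM, against 65.5 and 67.6 TPM). For the unfolded protein response 13 of 25 genes were higher (52%, against 32.4% of all genes) and 1 lower (4%, against 9.18%), or 6 and 3 under median-ratio scaling. The median lay 0.15 above that of all genes. The ER co-chaperone gene Dnajb9 had 68.1 and 69.8 TPM with CX-5461 and 33.8 and 34.9 TPM with rapamycin (0.98, SE 0.10).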

How the data were processed

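RNA was measured in ES cells of 4 groups, those given CX-5461, those given rapamycin, those given rotenone and those left untreated (2 libraries each). The deposited TPM values were made by the authors with Trimmomatic, HISAT2 (mm10), Picard removal of duplicates, and StringTie with GENCODE gene models, from uniquely mapped reads of poly-A libraries. TPM is relative to the library, so a change in total RNA is not visible, and depth and counting error are unknown. Gene names came from GENCODE release 21 by gene ID (53620 of 53715 matched, 95 not). Libraries were rescaled to a common total, log2(TPM + 1) was formed, and limma 3.58.1 (R 4.3.3) was fitted to all 8 libraries (4 groups, 4 residual degrees of freedom) with a trended prior and two-sided Benjamini-Hochberg adjusted p over 16956 genes. SE is that of the moderated fit. Fold changes understate those of low genes because of the pseudocount of 1. The script was tested on simulated data.

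Genes were named by rule, with some left out for length. The rule took the markers and drug-related genes of the study, and the 10 largest rises and 10 largest falls. Rises and falls were ranked among called genes averaging 5 TPM or more in the higher group, with no overlap between the libraries of the 2 groups. For each list the rule took the 3 called members with the largest change and the 2 most abundant. The following genes were named outside the rule, after their values were seen: Bak1, Cbs, Chac1, Chaf1b, Ddit3, Eif4e, Etv1, Fbl, Gas5, Gata4, Gdf15, Grb10, Herpud1, Klf4, Msc, Mthfd1l, Mthfd2, Ncl, Nupr1, Pdcd4, Phgdh, Plk2, Psat1, Pycr1, Sesn1, Sesn2, Sesn3, Shmt2, Slc1a4, Slc7a11, Slc7a3, Snhg1, Snhg12, Sox2, Tars, Trib3, Tsc2, Usp17le, Zfp42, Zscan4c, Cdx2, Cth, Aldh1l2, Prkag2, Tsc1, Nprl2, Nprl3, Castor1, Akt1s1, Stk11 and Pdgfra. Tead4 and Gsc were also named after their values were seen and are not counted among the named genes below. The members and gene lists were chosen with earlier results of these data known. Alternatives changed the pseudocount, level filter, scaling, exon length trend, prior, replicate block, libraries in the fit and each single library. Promoter letters came from RefSeq (GRCm38.p6).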

Additional observations from a re-analysis of the deposited data

How the results depend on the processing

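Of 211 named genes that were called, 146 kept direction and call under every alternative fit and 207 kept their direction. The exceptions in sign were Calr (-0.0016 under median-ratio scaling) and, under quantile scaling, Eef1a1 (0.16), Rplp1 (0.0557) and Rps6 (0.0264). Acly, which was not called, was at -0.30 after removal of the exon length trend. The cause was not tested. List medians relative to all genes changed sign for the ATF4 list (-0.0861 to 0.1184 with 1 library left out, highest without CX-5461 replicate 2), the mTOR list (0.10 with no level filter, 0.075 under quantile scaling and -0.0299 to 0.079 with 1 library left out), and under quantile scaling for the mitochondrially encoded mRNAs (0.23) and the heat shock list (0.18). The count of genes higher with CX-5461 was 3569 with a mean of at least 5 TPM required, 3397 under quantile scaling and 2951 at a log2 difference of at least 1, and 2313 to 6084 with 1 library left out. The count of lower genes was 3235 under median-ratio scaling, 3407 under quantile scaling, 3893 after removal of the length trend and 304 at a log2 difference of at least 1, and 656 to 1835 with 1 library left out. Where a treated group was left with 1 library, that library was assumed to vary like the other groups. With a replicate block 4921 genes were higher and 1232 lower. The deviations of same-numbered libraries had a correlation of -0.206 over all tested genes, so the numbers were not taken as pairs. With crossed numbers, chosen after seeing the data, 5887 were higher and 1777 lower. Groups of 2 libraries and TPM without counts limit the precision of all values.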
